A study of Mus musculus with 504 samples.

Results

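Genes of 8 RNA-binding proteins that set how transcripts are spliced in epithelial and mesenchymal cells are described here: Esrp1, Esrp2, Rbm47, Rbfox2, Mbnl1, Mbnl2, Ptbp1 and Hnrnpa1. They were taken by name from the deposited counts, through the Ensembl identifier that matched each symbol, and make up 8 of the 55450 gene identifiers in the table. All 8 passed the filter on low counts, among 33768 genes tested over both mouse lines and among 17878 tested over the epithelial population of both lines.

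Alternative splicing joins the exons of a gene in different combinations, and epithelial and mesenchymal cells use different forms of many adhesion, junction and cytoskeleton genes. Esrp1 and Esrp2 are epithelial splicing regulators that promote the epithelial forms, for example of the FGF receptor Fgfr2 and of Cd44, and are lost in epithelial-to-mesenchymal transition (EMT), when factors such as Zeb1 act on the Esrp1 gene. Rbfox2 and Mbnl1 favour forms used in mesenchymal and differentiated cells, while Ptbp1 and Hnrnpa1 are abundant proteins that mostly hold exons out of the transcript. The counts are per gene, so they show the level of each regulator and not which exons were used.

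The tumours came from mice in which the MMTV-PyMT oncogene drives mammary cancer. All groups carried MMTV-PyMT, MMTV-Flpo and the RC::FrePe reporter, and differed in the gene that drives the tamoxifen-activated Cre: Tnc (Tnc-CreERT2, 5 animals) or Cdh2 (Cdh2-CreERT2, 5 animals). Flp makes tumour cells mCherry-positive, and Cre turns them GFP-positive for good, so that GFP records past activity of the Tnc or Cdh2 promoter and not the present state. Tamoxifen was given to all mice, at 2 mg a dose and 2 doses weekly, beginning in week 9, and the tumours were collected in week 13 or 14. The sort used mCherry, GFP and EpCAM, a surface protein of epithelial cells. Among mCherry-positive cells, P18 was bright for mCherry and high for EpCAM, P17 was also high for EpCAM, and P05 lacked EpCAM. P22 carried both colours and high EpCAM. Among GFP-positive cells, P09 was bright for GFP with medium EpCAM, P16 had medium EpCAM, P10 had low EpCAM and P15 lacked it; the series text gives the gate of P09 under another number. From Cdh2-CreERT2 mice, P18 (5 animals), P15 (3 animals) and P05 (1 animal) were measured. The labels give the source as cell lines from tumours in one field and as cells sorted directly from tumours in another.

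Each library was a pool of 5 cells, and 335 libraries that the labels mark as passed were used, with totals from 313655 to 27849014 counts. They were summed per animal and population into 43 sums. Levels are CPM, the counts of a gene relative to the total of its sum after scaling by a TMM factor, and a gene is called where its adjusted p was below 0.05 in edgeR's quasi-likelihood test. In a pool, fewer cells of a type and less RNA per cell cannot be told apart. The P15 sum of TENA2524 is a single library of 508631 counts, the P16 sum of TENA2483 is also 1 library, and P18 of Cdh1624 is 2. The labels call all sorted cells tumour cells, yet the summed level of 15 leukocyte genes was 3122 to 23219 CPM in P15 of Tnc-CreERT2 mice, with none of the 15 at 0, and all 12 of its libraries held Ptprc, the common leukocyte antigen, at 10 CPM or more. In that population Krt8, a keratin of simple epithelia, was represented by 1 read, and 7 of 15 epithelial markers had 0 reads, Cdh1 among them. In P05 the leukocyte sum ranged from 32.6 to 21740 CPM, and in P15 of Cdh2-CreERT2 mice from 6.26 to 25.5, with 9 of 15 genes at 0.

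Esrp1 (ENSMUSG00000040728, chromosome 4, 11331933 to 11386783, minus strand, GRCm38) was read in every sum of the EpCAM-high and EpCAM-medium populations and in none of GFP-positive, EpCAM-negative cells of Tnc-CreERT2 mice. In P18 it stood at 31.6, 35.0, 36.0, 38.4 and 41.1 CPM in the 5 animals (36.4 ± 3.59, mean ± SD). P09 held 38.2 to 45.4 CPM (41.5 ± 3.49, n = 5) and P22 26.4 to 44.3 (36.5 ± 7.34, n = 5). These 3 populations overlapped, although their GFP histories differ. In P16 it was 21.0, 28.5, 63.6 and 66.8 CPM, and in P17 19.0, 19.9 and 27.7, all below the lowest P18 animal.

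In P10 and P05 the sums of Esrp1 ran from 0 up to levels found in P18. P10 sums held 0, 21.6, 33.8 and 44.8 CPM, and P05 sums 0, 0, 14.9, 26.1 and 39.5. In P15 of Tnc-CreERT2 mice the count was 0 in all 3 animals, over 45182788 pooled counts, so that a level of up to 0.0664 CPM is allowed by counting alone. In Cdh2-CreERT2 mice P18 stood at 16.2, 40.9, 45.0, 46.1 and 60.0 CPM, the lowest being the sum of 2 libraries, and P15 at 0, 0.124 and 4.63. Of the 51 Esrp1 reads in that P15 population, 42 were in Cdh1654, and the groups did not overlap. The single P05 sum of that line, from Cdh1725, held 0.167 CPM.

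Esrp2 (ENSMUSG00000084128, chromosome 8, 106130319 to 106136974), the close relative of Esrp1, followed a similar order at a lower and more variable level. It averaged 17.9 ± 6.33 CPM in P18, 27.1 ± 8.86 in P22 and 30.7 ± 9.13 in P09 (n = 5 each). In P09 it was above P18 of the same animal in 5 of 5 animals, and in P22 in 4 of 5, but the ranges overlapped. P10 sums held 0, 2.35, 20.3 and 48.3 CPM, and P05 sums 0, 0.431, 1.88, 13.7 and 36.2. P15 of Tnc-CreERT2 mice held 0, 0.586 and 2.36 CPM, below every P18 animal. In Cdh2-CreERT2 mice P15 stood at 0, 0.441 and 0.539 CPM against 0, 8.53, 18.1, 30.5 and 40.0 in P18, where the animal at 0 was again Cdh1624.

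Rbm47 (ENSMUSG00000070780, chromosome 5, 66016549 to 66173118, minus strand) encodes an RNA-binding protein of epithelial cells that also acts on splicing and transcript stability. Its RefSeq promoter window on GRCm38.p6, the 250 bases before 1 of the 3 starts in the table at chr5:66151955-66152204 (minus strand), is shown because Rbm47 was low in EpCAM-negative cells of the Cdh2-CreERT2 line. A search of both strands found no match there to CACCTG, the E-box bound by Zeb and Snail factors, which 17.2% of 32851 promoter windows of this length hold.
Rbm47: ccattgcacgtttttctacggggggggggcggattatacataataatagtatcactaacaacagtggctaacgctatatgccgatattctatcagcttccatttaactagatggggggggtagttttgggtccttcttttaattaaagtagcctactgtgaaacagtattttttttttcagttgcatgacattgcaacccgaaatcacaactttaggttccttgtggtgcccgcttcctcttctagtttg
The 8 windows matched cover 5 of the members. Esrp1, Esrp2 and Rbfox2 had no window and were not searched. The 8 windows held 0 matches to CACCTG, 0 to the Grainyhead-like site AACCNGTT (1.79% of windows) and 0 to the ETS site CCGGAAG (6.91%). The AP-1 site TGANTCA (6.75%) was matched in 1 window, that of Hnrnpa1.

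In P18 of Tnc-CreERT2 mice it stood at 33.4, 48.4, 52.3, 57.7 and 70.3 CPM (52.4 ± 13.5), in P17 at 47.9 ± 6.47 (n = 3) and in P10 at 51.6 ± 30.6 (n = 4). Within P05 it ranged from 2.13 CPM in TENA2462 to 123 in TENA2517, which is wider than the spread of any other population. In P15 of this line it was 0, 4.82 and 55.9 CPM, with 858 of the 861 reads in TENA2517. In Cdh2-CreERT2 mice the separation was complete: P18 held 61.7, 81.0, 83.5, 83.7 and 104 CPM, and P15 held 0, 3.67 and 10.2.

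**Figure D1:**
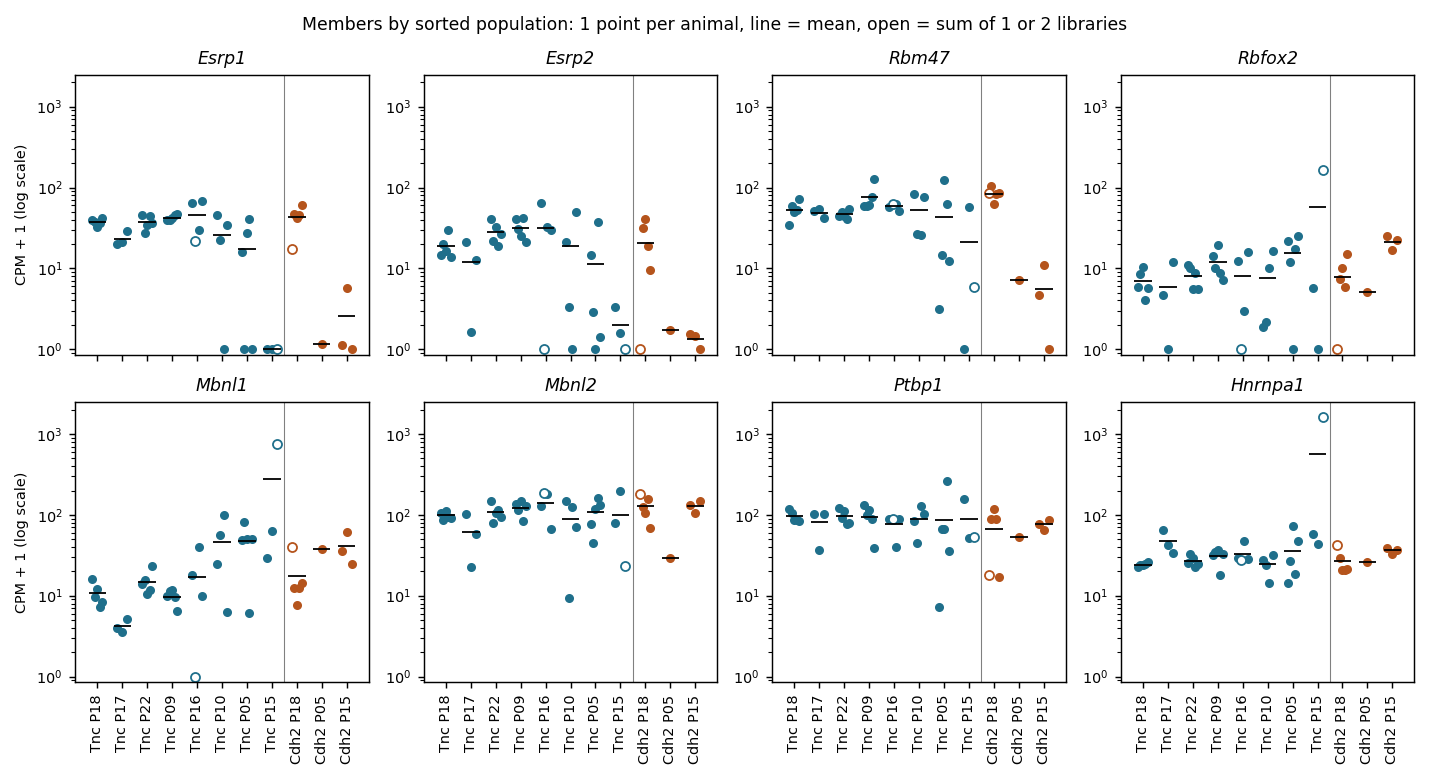
Level of each of the 8 genes (CPM + 1, log scale) in every sorted population of Tnc-CreERT2 (blue) and Cdh2-CreERT2 (orange) mice. Each point is the sum of 1 animal, open points are sums of 1 or 2 libraries and lines are means: Esrp1 falls to 0 in P15 of Tnc-CreERT2 mice, while the means of Ptbp1 lie between 75.7 and 95.3 CPM in the populations of that line.

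In the test of P15 against P18 in Tnc-CreERT2 mice, 3 of the 8 regulators were called, against 0.729% of all genes tested (246 of 33768; 67 higher and 179 lower, or 136 and 135 with RLE scaling, which moved the median over all genes from -0.61 to -0.18). Esrp1 was lower in 3 of 3 animals, and edgeR's adjusted p was 0.0465. With the counts of all animals pooled, and P15 set at 3 reads in all, it was lower by at least 9.07 on the log2 scale. That limit does not hold for each animal. Mbnl1 (fitted log2 fold change 5.20 ± 1.22, SE, adjusted p = 0.0375) and Hnrnpa1 (4.42 ± 0.82, adjusted p = 0.00811) were higher in 3 of 3 animals. The call of Esrp1 was lost when any 1 of the 5 animals was left out (edgeR adjusted p from 0.0679 to 0.220), while its count of 0 does not depend on an animal. It was also lost with RLE scaling (edgeR adjusted p = 0.0610) and with sums of at least 3 libraries (edgeR adjusted p = 0.0827). The calls of Mbnl1 and Hnrnpa1 were lost without TENA2524, whose P15 sum is the single library, and the fold changes then fitted were 1.92 and 0.99. All 3 calls were lost when P15 and P18 alone were fitted (Mbnl1 3.49, edgeR adjusted p = 0.263; Hnrnpa1 2.50, edgeR adjusted p = 0.443; Esrp1, edgeR adjusted p = 0.0610), and that of Hnrnpa1 with equal weights in limma (2.64, adjusted p = 0.0819). That of Mbnl1 was also lost without TENA2462, TENA2517 or TENA2560 (adjusted p 0.0858 to 0.126). Esrp2 (-3.56 ± 1.97, adjusted p = 0.396) and Rbm47 (-2.07 ± 1.41, adjusted p = 0.532) were not called. The part of leukocyte RNA in these values was not tested, since no library of this population is without Ptprc.

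In the Cdh2-CreERT2 line the same contrast is between populations in which no library held Ptprc at 10 CPM. Here 0 of 8 regulators were called by edgeR, as were 0.0% of all genes tested. At an unadjusted p below 0.05 there were 2 of 8 (3.6% of all genes), and DESeq2 called 3 (5.57% of all genes). Rbm47 had a fitted log2 fold change of -5.55 ± 1.78 (edgeR adjusted p = 0.814) and Esrp1 of -7.16 ± 2.44 (edgeR adjusted p = 0.962), and both were lower in all 3 animals with both populations. With DESeq2 their adjusted p values were 1.8e-05 and 7.1e-06, and that of Esrp2 0.00874. The difference between the lines in this contrast called 0 of 8 members with edgeR, against 0.00888% of all genes. At an unadjusted p below 0.05 there were 2 of 8 (6.94% of all genes), and DESeq2 called 3 (9.7% of all genes). For Esrp1 no size can be given to that difference, since P15 of Tnc-CreERT2 mice held 0 reads (edgeR adjusted p = 0.914).

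**Figure D2:**
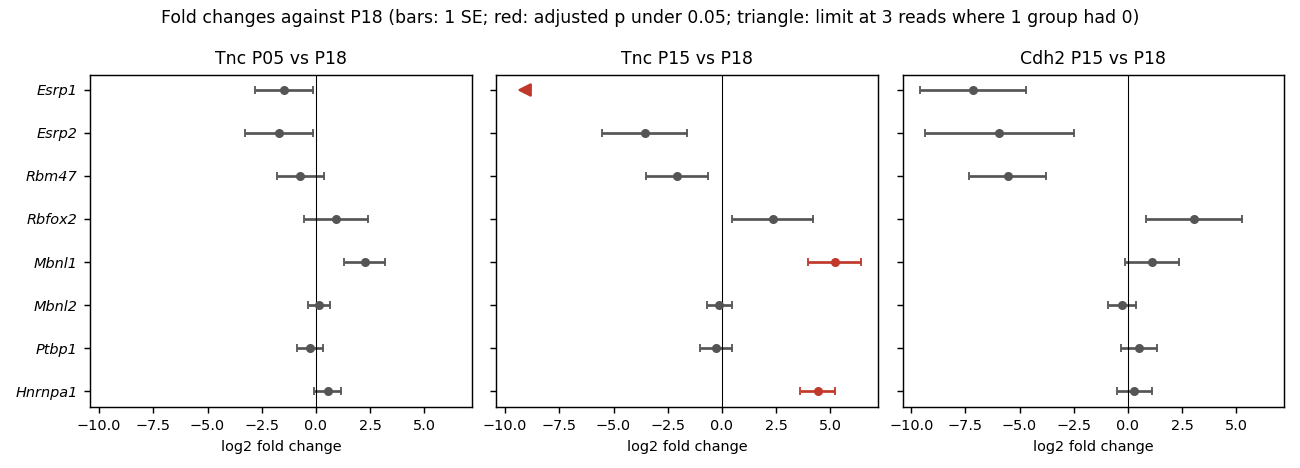
Fitted log2 fold change of each gene against P18 in P05 and P15 of Tnc-CreERT2 mice and P15 of Cdh2-CreERT2 mice, with bars of 1 SE and called genes in red. The triangle is the limit of -9.07 for Esrp1, and the 3 red marks are Esrp1, Mbnl1 and Hnrnpa1 in the middle panel.

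The remaining gates gave no called member. P05 against P18 called 0 of 8 with edgeR, against 0.545% of all genes. There were 1 of 8 at an unadjusted p below 0.05 (13.3% of all genes) and 1 with DESeq2 (14.5%), shares no higher than those over all genes. Esrp1 was lower in P05 in 4 of 5 animals (-1.47 ± 1.34, adjusted p = 0.673) and so was Esrp2 (-1.69 ± 1.57, adjusted p = 0.682). With every library given equal weight in limma, 4 of 8 were called, against 19.3% of all genes, among them Esrp1 (-3.86, adjusted p = 0.000202) and Esrp2 (-2.82, adjusted p = 0.00864). Over all genes that setting called 811 as higher and 5694 as lower, so lower calls prevailed in general and are not particular to these 2 genes. P10 against P18 called 0 of 8 with edgeR, against 0.00296% of all genes. There were 1 of 8 at an unadjusted p below 0.05 (8.23% of all genes), 0 with DESeq2 (6.54%) and 2 with equal weights (8.96%, with 236 genes higher and 2789 lower). P16 gave 0 of 8 with edgeR (also 0.00296% of all genes), 0 at an unadjusted p below 0.05 (6.11%) and 0 with DESeq2 (4.83%). P22, P09 and P17 each gave 0 of 8 by all 3 counts. Over all genes edgeR called 0.0% in each of them, the unadjusted p was below 0.05 for 2.12%, 2.52% and 5.02%, and DESeq2 called 2.41%, 2.44% and 5.32%. All these contrasts share the P18 sums.

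Between the lines, the test of Cdh2-CreERT2 against Tnc-CreERT2 P18 called 0 of 8 members with edgeR (0.0% of 17878 genes), 0 at an unadjusted p below 0.05 (2.41%) and 0 with DESeq2 (0.0168%). Esrp1 differed by 0.10 ± 0.44 (95% interval by a normal approximation, -0.76 to 0.96 on the log2 scale) and Rbm47 by 0.60 ± 0.39 (-0.16 to 1.36). The largest fitted differences were those of Mbnl1 (0.75 ± 0.63, -0.48 to 1.99) and Ptbp1 (-0.68 ± 0.55, -1.76 to 0.40), so these intervals allow differences of over 1 log2 unit. All Cdh2-CreERT2 sums were sequenced on lane 2 and, of the Tnc-CreERT2 animals, TENA2524 alone was. With lane as a term, which rests on that animal, edgeR called 0 of 8, and the differences were 0.12 ± 0.85 for Esrp1, 0.56 ± 0.77 for Rbm47, 1.33 ± 1.29 for Mbnl1 and -0.57 ± 0.97 for Ptbp1. TENA2524 held 35.0 CPM of Esrp1 and 52.3 of Rbm47 in P18, inside the range of the other Tnc-CreERT2 animals.

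Rbfox2 (ENSMUSG00000033565, chromosome 15, 77078990 to 77307004, minus strand) encodes a regulator that binds next to exons and favours several mesenchymal forms. It was a low gene in P18, at 3.10, 4.66, 4.86, 7.54 and 9.39 CPM (5.91 ± 2.52). In P09 it was higher than in P18 in 5 of 5 animals (6.16 to 18.4 CPM, 10.9 ± 4.89), but the ranges overlapped and the fitted fold change was 0.79 ± 1.41 (edgeR adjusted p = 1.0). P05 held 0, 10.9, 16.2, 20.5 and 24.1 CPM. Its clearest separation was in Cdh2-CreERT2 mice, where P15 stood at 15.7, 21.4 and 24.1 CPM and P18 at 0, 4.82, 6.44, 9.22 and 13.9. The groups did not overlap, yet the fold change of 3.04 ± 2.21 was not called (edgeR adjusted p = 1.0; DESeq2 adjusted p = 0.269). In P15 of Tnc-CreERT2 mice it was 0, 4.78 and 164 CPM, and the highest value is the single library of TENA2524. Without that animal the sign of its fitted difference from P18 turned from 2.34 to -1.31.

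Mbnl1 (ENSMUSG00000027763, chromosome 3, 60472830 to 60629750) encodes a muscleblind protein, which directs fetal-to-adult and lineage-dependent exon choice. The RefSeq table holds 2 starts for it, and the 250 bases before each are shown because they differ in composition: 38.0% of the first (chr3:60472580-60472829) and 73.6% of the second (chr3:60500929-60501178, both on the plus strand) are G or C. Neither matched the 4 motifs, and gene counts do not show which start was used.
Mbnl1 window 1: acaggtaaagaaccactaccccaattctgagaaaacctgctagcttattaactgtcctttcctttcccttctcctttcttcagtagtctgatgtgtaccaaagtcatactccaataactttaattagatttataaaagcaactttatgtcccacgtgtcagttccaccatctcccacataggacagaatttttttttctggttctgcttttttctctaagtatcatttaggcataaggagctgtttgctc
Mbnl1 window 2: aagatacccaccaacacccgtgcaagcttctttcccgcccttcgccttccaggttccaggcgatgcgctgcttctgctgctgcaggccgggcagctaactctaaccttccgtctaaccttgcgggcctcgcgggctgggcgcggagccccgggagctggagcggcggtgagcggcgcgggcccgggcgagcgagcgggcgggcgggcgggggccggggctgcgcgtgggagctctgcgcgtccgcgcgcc

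Mbnl1 was low in P18 and lower in P17, and had its highest means in P10, P05 and P15. In P18 it stood at 6.33, 7.31, 8.54, 11.0 and 15.1 CPM (9.66 ± 3.52), and in P17 at 2.57, 2.94 and 4.22, below every P18 animal. P10 held 5.21, 23.7, 55.5 and 98.2 CPM, and P05 held 5.19, 48.4, 49.4, 49.8 and 80.4. The low animal in both was TENA2524, while 4 of 5 P05 sums lay above every P18 sum. P15 held 28.0, 61.7 and 751 CPM, and its mean without the single library is 44.8 ± 23.8 (n = 2). In Cdh2-CreERT2 mice P15 held 23.8, 35.2 and 60.9 CPM, and P18 held 6.66, 11.3, 11.6, 13.2 and 38.7, the last being the sum of 2 libraries, through which the groups overlapped. Against P18 the fitted fold change was 2.15 ± 1.00 in P10 (edgeR adjusted p = 0.586) and 2.26 ± 0.95 in P05 (edgeR adjusted p = 0.287; DESeq2 adjusted p = 0.0173). Without the libraries that held Ptprc these were 0.78 and 1.74.

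Mbnl2, a second muscleblind gene (ENSMUSG00000022139, chromosome 14, 120275669 to 120431697), did not follow Mbnl1. It stood at 97.4 ± 10.6 CPM in P18 (n = 5), 122 ± 23.7 in P09 (n = 5), 106 ± 46.1 in P05 (n = 5) and 98.1 ± 87.8 in P15 (n = 3) of Tnc-CreERT2 mice. Population means in that line ran from 59.9 CPM in P17 to 139 in P16, and neighbours in that order overlapped. In Cdh2-CreERT2 mice P15 (128 ± 20.7, n = 3) and P18 (127 ± 44.6, n = 5) overlapped, and the single P05 sum was lower, at 28.1 CPM. The fitted difference of P15 from P18 was -0.12 ± 0.59 in the Tnc-CreERT2 line and -0.27 ± 0.64 in the other.

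Ptbp1 (ENSMUSG00000006498, chromosome 10, 79854427 to 79864771) encodes the polypyrimidine tract binding protein. It has near-identical copies in the genome and the treatment of reads shared with them is not known here, so its level, also per kilobase, is uncertain. Its population means in Tnc-CreERT2 mice lay between 75.7 CPM in P16 and 95.3 in P18, and every pair of neighbours overlapped. The widest spread was in P05, from 6.32 to 258 CPM (86.3 ± 99.3). In Cdh2-CreERT2 mice it was 64.5, 75.6 and 85.0 CPM in P15, inside the P18 range of 16.0 to 118.

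Hnrnpa1 (ENSMUSG00000046434, chromosome 15, 103240432 to 103246692) encodes a heterogeneous nuclear ribonucleoprotein that antagonises SR proteins at exons. It has many near-identical processed copies in the genome, and how the authors' counting treated reads that fit several copies is not given in the sources used here, so its level is uncertain. In P18 it was the most even of the genes, at 21.8, 22.8, 23.1, 23.7 and 24.9 CPM (23.3 ± 1.15). P16 (26.3, 27.5, 28.3 and 46.6 CPM) and P17 (32.8, 41.2 and 63.9) lay wholly above that narrow range. Their fitted differences of 0.46 ± 0.66 and 0.82 ± 0.72 were not called (edgeR adjusted p = 1.0 in both). P15 held 42.4, 57.0 and 1616 CPM. Its mean in the sums of at least 3 libraries was 49.7 ± 10.3 (n = 2), also above every P18 sum, with a fitted difference of 0.90 (edgeR adjusted p = 0.410). In Cdh2-CreERT2 mice P15 held 31.8, 36.1 and 38.5 CPM and P18 19.9, 20.0, 20.5, 28.5 and 41.4.

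P15 against P05 sets GFP-positive beside mCherry-positive cells, both EpCAM negative. Hnrnpa1 was called as higher in P15 (3.87 ± 0.83, edgeR adjusted p = 0.0481), 1 of 8 members against 0.136% of all genes. It was higher in 2 of 3 animals with both populations, and the call was lost without TENA2524 (0.32), without TENA2462 (3.69, edgeR adjusted p = 0.214) and without TENA2560 (4.00, edgeR adjusted p = 0.147). It was also lost with no filter (edgeR adjusted p = 0.0574), with sums of at least 3 libraries (0.44), with P15 and P05 alone (1.78) and with equal weights in limma (adjusted p = 0.153). Esrp1, at 0 in P15 and in TENA2483 of P05, was not called with the animal as a block (edgeR adjusted p = 0.138), and was called without the block (edgeR adjusted p = 0.0454). At an unadjusted p below 0.05 there were 3 of 8 members (10.3% of all genes), and DESeq2 called 3 (13.0% of all genes).

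Per kilobase of all annotated exons of a gene, P18 of Tnc-CreERT2 mice held most of Ptbp1 (20.1 ± 3.02 CPM per kb), then Mbnl2 (8.12 ± 0.883), Hnrnpa1 (7.38 ± 0.363), Rbm47 (7.32 ± 1.88), Esrp1 (5.78 ± 0.569), Esrp2 (4.13 ± 1.46), Rbfox2 (0.726 ± 0.309) and Mbnl1 (0.516 ± 0.188). That length, 18717 bases for Mbnl1 and 8140 for Rbfox2, can exceed that of the transcripts present, so the order is approximate. In CPM Mbnl1 (9.66) stood above Rbfox2 (5.91). The places of Ptbp1 and Hnrnpa1 are uncertain, as are their levels, because of reads shared with copies. Mbnl2, Hnrnpa1 and Rbm47 lay within each other's spread, and so did Rbfox2 and Mbnl1. In P15 of Cdh2-CreERT2 mice Rbfox2 (2.50 ± 0.529 CPM per kb, n = 3) lay above Esrp1 (0.252 ± 0.419), the reverse of their order in P18 of that line (0.845 ± 0.635 and 6.60 ± 2.53, n = 5).

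Single libraries show whether an intermediate level in a sum was shared by its pools. Esrp1 at 10 CPM or more was found in 53 of 55 P18 libraries, 47 of 50 of P22 and 48 of 48 of P09. The counts were 20 of 26 in P16, 7 of 11 in P17, 11 of 25 in P10, 4 of 32 in P05 and 0 of 12 in P15. The intermediate means of P10 and P05 thus came from a part of the pools. The 4 P05 libraries with Esrp1 held 26.1 to 75.8 CPM, levels inside the P18 range of 7.31 to 77.4. Libraries of these gates also held fewer genes, with medians of 7924 in P10 and 7587 in P05 against 14140 in P18. Ptbp1 too was found in fewer of them (15 of 25 and 15 of 32, against 54 of 55). Mbnl1 was not (9 of 25 and 16 of 32, against 17 of 55). The part of general detection in the Esrp1 counts was not tested. In the Cdh2-CreERT2 line it was found in 46 of 50 P18, 1 of 16 P15 and 0 of 10 P05 libraries. The 1 P15 library, of Cdh1654, held 92.7 CPM of Esrp1, 115 of Krt8 and 24.3 of Rbm47.

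**Figure D3:**
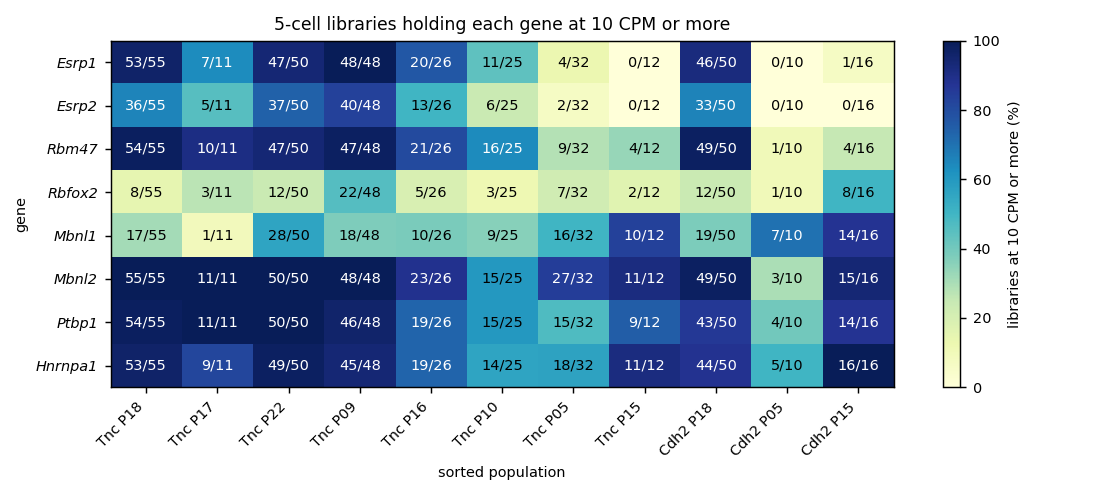
Number of 5-cell libraries of each population that hold each gene at 10 CPM or more, out of all its libraries, with the share in colour. Esrp1 goes from 53 of 55 libraries in P18 to 0 of 12 in P15 of Tnc-CreERT2 mice and Esrp2 from 36 of 55 to 0 of 12, Rbm47 is at 9 of 32 in P05 and 4 of 12 in P15, and Mbnl1 goes from 17 of 55 to 10 of 12.

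Esrp1 and Rbm47 were not always found in the same libraries. Of 25 P10 libraries, 10 held Esrp1 and Rbm47, 6 held Rbm47 alone, 1 held Esrp1 alone and 8 held neither. In P05 the same 4 counts were 3, 6, 1 and 22, and in P15 0, 4, 0 and 8. Rbm47 was thus found without Esrp1 in 6 of 25 P10 libraries, compared with 2 of 55 in P18. In P17, which is also high for EpCAM, it was found without Esrp1 in 3 of 11. Rbfox2 reached 10 CPM in 22 of the 48 P09 libraries, all 48 of which held an Esrp gene, in 7 of 32 in P05, where 5 held one, and in 8 of 16 in P15 of Cdh2-CreERT2 mice, where 1 did. None of those 7 or 8 libraries was among those with an Esrp gene. These are counts of pools, several of which come from the same animal, and they were not tested.

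Marker genes in the same libraries divided the mixed gates. In P10, 18 libraries held Krt8 at 10 CPM or more and no Ptprc, 4 held Ptprc and 3 held neither. Esrp1 reached 10 CPM in 11 of those 18 and in none of the other 7, and Rbm47 in 15 of 18, 1 of 4 and 0 of 3. Mbnl1 had the other arrangement, 4 of 18, 4 of 4 and 1 of 3, with a median of 0.698 CPM in the first class and 120 in the Ptprc class. In P05 the classes held 8, 7 and 17 libraries. Esrp1 reached 10 CPM in 3, 1 and 0 of them, Rbm47 in 3, 4 and 2, Mbnl1 in 4, 4 and 8 and Rbfox2 in 1, 0 and 6. The median of Mbnl1 in P05 was 27.2 CPM in the Ptprc class, 9.04 in the Krt8 class and 7.10 in the remaining one, and the highest Rbfox2 level in a Ptprc library of P05 was 0.148 CPM. In P15 of Tnc-CreERT2 mice 2 of 12 Ptprc libraries held Rbfox2 at 10 CPM or more, the highest at 201 CPM. These differences were not tested. Of the 16 P15 libraries of Cdh2-CreERT2 mice, none of which held Ptprc, Mbnl1 reached 10 CPM in 14 and Rbfox2 in 8.

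**Figure D4:**
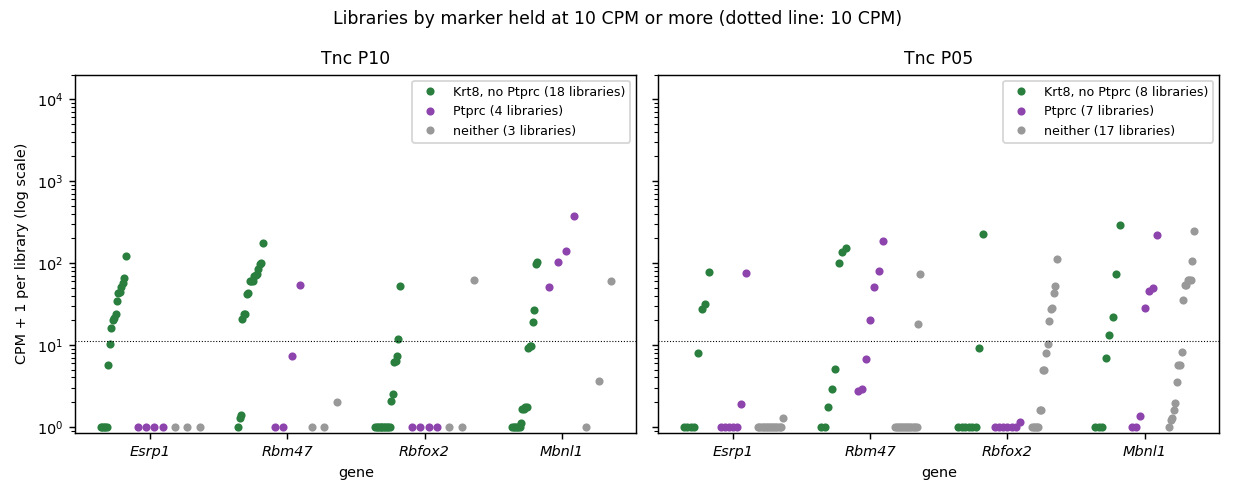
Level of 4 genes (CPM + 1, log scale) in single P10 and P05 libraries of Tnc-CreERT2 mice, by the marker the library holds at 10 CPM or more; the dotted line is 10 CPM. In P10 the Esrp1 points above the line are all in the 18 libraries with Krt8 and without Ptprc, and all 4 Ptprc libraries lie above it for Mbnl1.

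Other genes of the splicing machinery were looked at as lists. Of 57 other splicing regulators (SR proteins, hnRNPs, CELF, Nova, Quaking and related genes), 0 were called by edgeR in any comparison. In P15 against P18 of Tnc-CreERT2 mice 3 of the 57 had an unadjusted p below 0.05 (15.2% of all genes did) and DESeq2 called 13 (14.6% of all genes), and their median fitted log2 fold change was 0.31 against -0.61 over all genes. In P05 the corresponding counts were 4 and 7 (13.3% and 14.5% of all genes; median 0.11 against -0.15). In P15 of Cdh2-CreERT2 mice they were 3 and 4 (3.6% and 5.57% of all genes; median 0.59 against 0.0). Of 28 core spliceosome genes, 1 was called in any comparison, and it is named after its values were seen: Prpf19, an E3 ligase of the active spliceosome, was lower in P15 of Tnc-CreERT2 mice, with 1 read there and 7.41 ± 0.697 CPM in P18 (n = 5). Its pooled log2 ratio was -8.35 (95% exact binomial interval -13.65 to -5.87, counting error only; edgeR adjusted p = 0.0305). In P15 against P18 of Tnc-CreERT2 mice edgeR called 0.729% of all genes. There 3 of the 28 had an unadjusted p below 0.05 (15.2% of all genes) and DESeq2 called 3 (14.6%). Of 16 genes known for EMT-linked isoforms, 0 were called by edgeR in any comparison. In P15 against P18 of Tnc-CreERT2 mice 1 had an unadjusted p below 0.05 and DESeq2 called 1 (15.2% and 14.6% of all genes). In P15 against P05 these counts were 4 and 3 (10.3% and 13.0% of all genes).

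Of 12 transcription factors tied to Esrp1 in EMT, edgeR called 2 in P15 against P18 of Tnc-CreERT2 mice (0.729% of all genes), 1 in P05 against P18 (0.545%) and 1 in P15 against P05 (0.136%). In the same order, 9, 6 and 7 had an unadjusted p below 0.05 (15.2%, 13.3% and 10.3% of all genes). DESeq2 called 10, 4 and 9 (14.6%, 14.5% and 13.0%). None was called by edgeR in the other comparisons, in which 0 to 7 had an unadjusted p below 0.05 and DESeq2 called 0 to 6. Over all genes those shares ran from 2.12% to 8.23% and from 0.0168% to 9.7%. Among these other comparisons, the 7 and the 6 were in P15 against P18 of Cdh2-CreERT2 mice (3.6% and 5.57% of all genes). The contrast of the lines held 5 and 5 (6.94% and 9.7%). The 2 called in P15 against P18 of Tnc-CreERT2 mice were lower. All 12 libraries of that P15 population held Ptprc at 10 CPM or more, and the part of leukocyte RNA in its values was not tested. The epithelial ETS factor Ehf stood at 0.207 ± 0.329 CPM (n = 3) against 158 ± 22.0 (n = 5, log2 fold change -9.26 ± 1.25, edgeR adjusted p = 0.000248). The epithelial repressor of EMT Ovol1 stood at 0 reads against 43.1 ± 11.8 CPM (log2 fold change of -9.27 or beyond with P15 set at 3 reads, edgeR adjusted p = 0.0477). Grhl2, a grainyhead factor that upholds epithelial genes, averaged 7.84 ± 1.72 CPM in P18 (n = 5) and was at 0 reads in P15 (edgeR adjusted p = 0.115). The EMT factor Zeb2 was called as higher in P05 (52.7 ± 39.5 against 0.0197 ± 0.0206 CPM, n = 5 each; 11.13 ± 2.49, edgeR adjusted p = 0.0325), where leukocyte markers were also present. Zeb1, the repressor of Esrp1, was not called in any comparison. It stood at 33.3, 40.8 and 48.2 CPM in P15 of Cdh2-CreERT2 mice, against 0 to 5.26 in P18 of that line, with no overlap (edgeR adjusted p = 1.0). In P15 of Tnc-CreERT2 mice it was 0, 1.11 and 49.8 CPM, the last in the single library of TENA2524. Ehf was the 1 of the 12 called between P15 and P05 (-7.67 ± 1.17, edgeR adjusted p = 0.00257).

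Across the 43 sums the genes whose log2 levels ran most like each member were sought among 7896 genes with a mean of at least 10 CPM. Sums of an animal hold different cells but share the animal and its lane, so the correlations are descriptions. For Esrp1 they were Krt8 (Pearson r = 0.94), its processed copy Krt8-ps (0.93) and Wfdc18 (0.92). For Esrp2 they included the tight junction gene Marveld2 (0.92) and Gm15929 (0.89). Rbm47 was closest to the junction adhesion gene F11r (0.79), Esrp1 (0.75) and Ehf (0.74). Mbnl1 was closest to Tln1, the integrin-linked talin (0.78), Cst3 (0.74) and 1700020I14Rik (0.70), and Rbfox2 to Il11ra1 (0.73), Bmp1 (0.71) and Babam2 (0.70). The nearest genes of Mbnl2 (Pum2, Sptlc2 and Tsc22d2, 0.69 to 0.71) and Ptbp1 (Gm17134, Pnpla2 and Tbc1d17, 0.67 to 0.74) were less alike. Those of Hnrnpa1 (Gm20511, B3gnt6 and Mrip-ps, 0.83 to 0.85) were closer. The 43 sums include the single P15 library of TENA2524, where Hnrnpa1, Mbnl1 and Rbfox2 had their highest levels (1616, 751 and 164 CPM). How far their correlations rest on that library was not tested. Among the members, Esrp1 ran with Esrp2 (0.76) and Rbm47 (0.75) and opposite to Mbnl1 (-0.64), and was little related to Mbnl2 (0.15) or Ptbp1 (0.11).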

How the data were processed

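Gene expression was measured by Smart-seq2 in 5-cell pools. The deposited table holds raw read counts per gene for 504 wells, of which 17 were empty; per the submitters' processing notes the reads were handled with STAR, SAMtools, featureCounts and Subread on mm10. Their versions and settings, strand included, were not given in the sources used here. Symbols and coordinates came from GENCODE M21. The 335 libraries labelled as passed (152 with cells had failed) were summed per animal and population. One joint fit over the 43 sums was made in edgeR 4.0.16 with R 4.3.3 (filterByExpr, TMM, trended dispersion, robust quasi-likelihood F test, animal as block, Benjamini-Hochberg adjustment). P18 of both lines was fitted without a block. The script was tested on simulated data. The labels name the animal of each library, so the block pairs populations of an animal. Alternatives were RLE scaling, no filter, DESeq2 1.42.0, limma 3.58.1 on equally weighted libraries (log2 of CPM + 1), no block, fewer sums or populations, libraries without Ptprc, and each animal left out (with the dispersion trend of the full fit). The animals are the replicates. The exact binomial interval and the limits of 3 counts cover counting error only. Reads carry no molecular identifiers, so even that error may be understated. The 95% intervals of fitted differences rest on the SE of the edgeR fit, taken from the fold change and the F statistic, which carries the spread between sums. They use a normal approximation and are too narrow for so few animals. Single-library CPM and pooled bounds use no scaling factor. The members, the gene lists and the rules for naming genes (called genes of the lists of other splicing regulators and of transcription factors, at most 6 per list and comparison, with Zeb1, Zeb2, Grhl2 and Ehf always, and the 3 nearest genes by Pearson r) were chosen with earlier results of these data known. One of the nearest genes is not reported here.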

Additional observations from a re-analysis of the deposited data

Results flagged for a closer look

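In 56 pairs of a gene and a population with 4 or 5 animals, 6 had a sum that stood apart from the rest. The rule used passes about 1 in 20 for normal values of equal spread. Sums of unequal numbers of 5-cell pools need not be such, so the number that chance gives is not known here. Rbm47 in P09 was 126 CPM in TENA2560, a sum of 5 libraries, and 58.6 to 74.7 in the other 4 animals. Mbnl1 in P18 of Cdh2-CreERT2 mice was 38.7 CPM in Cdh1624, a sum of 2 libraries, against 6.66 to 13.2. Ptbp1 in P16 was 39.3 CPM in TENA2517 against 86.7 to 88.6, and in P05 it was 258 CPM in TENA2524 against 6.32 to 66.5. Hnrnpa1 in P09 was 17.1 CPM in TENA2524 against 30.9 to 35.8, and in P16 it was 46.6 CPM in TENA2517 against 26.3 to 28.3. In P16 the same animal was therefore low in Ptbp1 and high in Hnrnpa1.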

How the results depend on the processing

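The 8 genes were recomputed under the alternatives above. Members called changed as follows. In P15 against P18 of Tnc-CreERT2 mice (3 called), sums of at least 3 libraries gave 0, the 2 populations alone gave 0, and leaving out an animal gave 0 to 2. In P15 against P05 (1 called), no filter, sums of at least 3 libraries, the 2 populations alone and equal weights each gave 0, DESeq2 gave 3, and leaving out an animal gave 0 to 1. In P05 against P18 (0 called) DESeq2 gave 1 and equal weights 4, in P10 against P18 (0) equal weights gave 2, and in P15 against P18 of Cdh2-CreERT2 mice (0) DESeq2 gave 3 and equal weights 2. In the contrast of the lines (0) DESeq2 gave 3. Without the animal block, P15 against P05 gave 2 members called and the contrast of the lines 1; the block changed no other count of members by more than 1.5 times.

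Signs turned as follows, on the log2 scale. For P15 against P18 of Tnc-CreERT2 mice, Rbfox2 (2.34) became -1.44 with sums of at least 3 libraries, -0.63 in the 2 populations alone and -1.31 to 3.61 with an animal left out. For P15 against P05, Esrp2 (-1.87) became 0.03 in the 2 populations alone and 0.03 with equal weights, and -4.02 to 0.09 with an animal left out. Rbfox2 (1.42) became -2.52 and Mbnl1 (2.94) -0.31 with sums of at least 3 libraries, and -2.16 to 2.41 and -0.53 to 4.19 with an animal left out. In the contrast of the lines, Esrp2 (-2.37) became 0.30 with equal weights and -5.09 to 1.07 with an animal left out, Rbm47 (-3.48) -6.61 to 0.03 with an animal left out, and Mbnl1 (-4.09) 0.12 with sums of at least 3 libraries. The causes were not tested, apart from the smaller number of sums in the settings that leave sums out.

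Genes called over the whole table varied widely: 40 to 4915 in P15 against P18 of Tnc-CreERT2 mice (246 in the main analysis, 4915 with DESeq2), 1 to 6505 in P05 (184; 4913) and 0 to 4386 in P15 against P05 (46; 4386). In P22, P09, P16, P10 and P17 DESeq2 called 815, 825, 1630, 2209 and 1797 genes where edgeR called 0 or 1, in P15 of Cdh2-CreERT2 mice 1881 against 0, in the contrast of the lines 3276 against 3, and in P18 of the lines 3 against 0. P15 of Tnc-CreERT2 mice has no value without Ptprc libraries, as none is left. Depth limits the P15 sum of TENA2524, where 1 read is worth more than in any other sum. Lane as a term in P18 of the lines was chosen after seeing the data, and 0 members were called.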

Other observations

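In P15 of Tnc-CreERT2 mice the regulators differed between 2 animals that both lacked Esrp1. TENA2483 (6 libraries) had 0 reads of Rbm47 and 158 CPM of Ptbp1, and TENA2517 (5 libraries) had 55.9 CPM of Rbm47 and 50.5 of Ptbp1. This pair was chosen after its values were seen. The 17 empty wells held 8 reads of Mbnl1 in all and 0 of each other member.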
